A study of Homo sapiens with 9 samples.

Results

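The genes described here make and load the peptides that MHC class I molecules show at the cell surface, and they comprise PSMB8, PSMB9 and PSMB10 (catalytic subunits of the immunoproteasome), PSME1 and PSME2 (subunits of its PA28 activator), TAP1 and TAP2 (the peptide transporter), TAPBP and TAPBPL (tapasin and its relative TAPBPR) and ERAP1 (an aminopeptidase that trims peptides). They were chosen by symbol as 10 genes, and 9 of them had a transcript cluster among the 21448 clusters of the array. No cluster carried the symbol PSME2 in the annotation used, so its transcript was not analysed here. The RNA came from ACC-MESO-1, an established human mesothelioma line, infected with the short hairpin RNAs shLSD1 #1 (replicates 4 to 6), shLSD1 #2 (replicates 7 to 9) or a control shRNA (replicates 1 to 3), and was read on 9 Clariom S arrays. LSD1 is a histone demethylase of repressor complexes, and the series asks how its suppression bears on the mesenchymal character of mesothelioma. LSD1's own transcript is not analysed here. All groups are this 1 cell line in culture, and the labels do not say whether the arrays of a group came from separate cultures, so p-values measure the spread between arrays, which may be technical.

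As background, the proteasome cuts proteins into peptides, and interferon replaces its 3 constitutive catalytic subunits PSMB5, PSMB6 and PSMB7 with PSMB8, PSMB9 and PSMB10. TAP1 and TAP2 form a heterodimer that pumps the peptides into the endoplasmic reticulum, where tapasin bridges it to the waiting MHC molecule and TAPBPR edits the peptide that is bound. Interferon induces most of these genes through transcription factors that include IRF1 and IRF9 and the coactivator NLRC5, and interferon-stimulated response elements (ISRE) in their promoters are read by the IRF family.

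PSMB8, PSMB9, TAP1 and TAP2 lie beside each other in the MHC class II region of chromosome 6, and TAP1 and PSMB9 start head to head with 487 bases between them. The 250 bases before each start are shown in full because together they span this shared stretch, with a 13-base overlap. They are RefSeq sequences of GRCh38.p14, read 5′ to 3′ in the direction of each gene, at chr6:32853705-32853954 on the minus strand for TAP1 and chr6:32853942-32854191 on the plus strand for PSMB9. Capitals mark matches on either strand to an ISRE-like motif, GAAA and again GAAA with any 2 bases between them, and to a kB-like motif, GGG and TTTCC with any 2 bases between them, and in TAP1 they fall into a run of 2 overlapping ISRE-like matches and 1 kB-like match.
TAP1: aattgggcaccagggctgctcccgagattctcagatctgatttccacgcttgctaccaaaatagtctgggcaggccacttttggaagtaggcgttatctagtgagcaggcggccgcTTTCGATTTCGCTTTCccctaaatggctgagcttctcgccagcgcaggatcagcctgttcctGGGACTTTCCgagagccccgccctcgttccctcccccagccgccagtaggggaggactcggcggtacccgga
PSMB9: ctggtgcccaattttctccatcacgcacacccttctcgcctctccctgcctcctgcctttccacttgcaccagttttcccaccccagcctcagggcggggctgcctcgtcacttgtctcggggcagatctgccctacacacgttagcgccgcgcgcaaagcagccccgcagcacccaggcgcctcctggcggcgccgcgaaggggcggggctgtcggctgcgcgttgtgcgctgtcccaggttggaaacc

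Other members held the ISRE-like motif as well. The 30 bases around each match are shown to compare their spelling, with the match in capitals. They lie at chr6:32844032-32844061 (PSMB8), chr6:32838778-32838807 (TAP2) and chr6:33314076-33314105 (TAPBP), chr16:67936852-67936881 (PSMB10), chr14:24146619-24146648 (PSME2) and chr5:96807924-96807953 (ERAP1), all on the minus strand, and at chr14:24136189-24136218 (PSME1) on the plus strand. The stretch of TAPBPL at chr12:6451967-6451996 on the plus strand is shown for its kB-like match, in capitals.
PSMB8: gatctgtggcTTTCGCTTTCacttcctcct
PSMB10: gggtaaaggcGAAAGCGAAAgcaggaagta
PSME1: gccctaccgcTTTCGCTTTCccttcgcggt
PSME2: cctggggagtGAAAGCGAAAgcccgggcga
TAP2: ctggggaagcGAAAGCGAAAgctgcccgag
TAPBP: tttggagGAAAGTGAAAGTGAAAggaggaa
ERAP1: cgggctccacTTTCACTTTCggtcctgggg
TAPBPL: gaaatcaccaGGGGATTTCCgggtgaggtg

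Of the 10 genes, 8 had the ISRE-like motif in a window of 300 bases around a start, from 250 before to 50 after it. Over all genes of the table, 4.38% did, and over single windows the shares were 8 of 14 for these genes and 3.57% in all. The letters GAAAGCGAAA, or their reverse complement, stood in PSMB8, PSMB10, PSME1, PSME2 and TAP2 and within the TAP1 run, whereas ERAP1 had GAAAGTGAAA once and TAPBP in 2 overlapping copies. PSMB9 and TAPBPL had no match to the ISRE-like motif in their windows. The kB-like motif stood in TAP1, TAPBP and TAPBPL (2.33% of all genes, 1.91% of windows), and the motif TTCNNNGAA, which resembles the gamma-activated site (GAS) of interferon-induced genes, in PSMB8 and TAP1 (9.38% of all genes, 7.66% of windows). The ISRE-like and kB-like matches did not overlap each other. These matches describe letters and were not measured as binding.

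**Figure D1:**
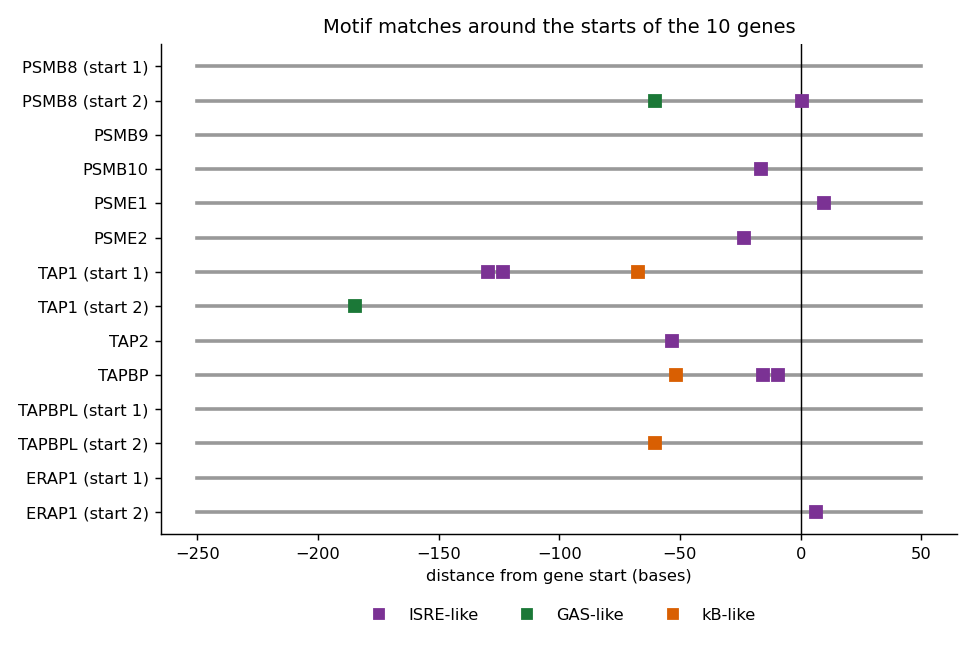
Matches to the ISRE-like, GAS-like and kB-like motifs (squares) around 14 annotated starts of the 10 genes, against distance from the start in bases, with each window as a grey line. In all, 8 genes have an ISRE-like match, and PSMB9 and TAPBPL have none.

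The levels that follow are log2 signals summarised per transcript cluster by the authors with RMA, and a difference of 1 is 2-fold. Array medians over all clusters lay between 6.39 and 6.43. The 95th percentile of 612 negative control probe sets lay between 6.93 and 7.54 and served as the limit of background. Hybridization spike-ins divided the arrays into a low class, with the 3 shLSD1 #1 arrays and shLSD1 #2 replicate 8, and a high class with all others. Their mean signal was 10.8 to 10.9 in the low class and 11.2 to 11.4 in the high class. As control and shLSD1 #1 arrays never share a class, blocking on the class obtains the shLSD1 #1 change by way of shLSD1 #2. Only shLSD1 #2 has arrays in both classes, so the correction rests on its replicate 8 against its replicates 7 and 9. Whether a shLSD1 #1 call ends with the block therefore depends on that 1 array. For shLSD1 #2 the block is the same fit as leaving out replicate 8. Of 10 mesothelial markers, KRT8, KRT18, VIM and MSLN were above background on all 9 arrays, and CALB2 and KRT5 on none. By limma 3 of the 10 passed with both hairpins, named here after their values were seen. MSLN was lower (-0.85 and -0.95, adjusted p = 0.00729 and 0.00482). WT1 and UPK3B were higher and below background on all control arrays, WT1 by at least 1.35-fold and 1.27-fold (adjusted p = 0.0156 and 0.0304) and UPK3B, above background on 2 of 3 shLSD1 #1 arrays and all shLSD1 #2 arrays, by at least 1.14-fold and 1.15-fold (adjusted p = 0.00325 and 0.00341), counting from the negative control limit. Blocked by spike-in class, the shLSD1 #1 calls of MSLN, WT1 and UPK3B ended (limma adjusted p = 0.573, 0.561 and 0.167). So did the shLSD1 #2 call of WT1 (0.107), by the same fit as without shLSD1 #2 replicate 8. That call also ended without control replicate 2 (0.0714) or shLSD1 #2 replicate 9 (0.0687). It ended as well among arrays of high spike-in signal (0.190) and in a fit of only the groups compared (0.0697). The part of these markers in the results below was not tested. Of 10 measured markers of blood cells, which carry the immunoproteasome constitutively, 9 were below background on all arrays, PTPRC and CD3E among them. CSF1R was the exception. None passed the test with either hairpin, and their mean signal spanned 4.46 to 4.56 with shLSD1 #1, 4.25 to 4.57 with shLSD1 #2 and 4.38 to 4.54 in control.

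The measured genes were lower or did not pass the test. By limma, with Benjamini-Hochberg adjustment over all 21448 clusters and a threshold of 0.05, 6 of 9 were lower with shLSD1 #1, where 7.94% of all clusters were, and 7 of 9 with shLSD1 #2, where 6.63% of all clusters were. None was higher with either hairpin, against 7.85% and 6.56% of all clusters. A fall of at least 2-fold was called for 4 of 9 with shLSD1 #1 (TAP1, TAPBPL, PSMB8 and PSMB9), against 2.16% of all clusters, and for 2 of 9 with shLSD1 #2 (TAP1 and TAPBPL), against 1.92%. The 6 genes lower with both hairpins were PSMB8, PSMB9, PSME1, TAP1, TAP2 and TAPBPL, and 5.32% of all clusters were lower with both. Blocked by spike-in class, 3 of 9 were lower with shLSD1 #1 (PSMB9, TAP1 and TAPBPL) and 6 of 9 with shLSD1 #2. PSMB8, PSME1 and TAP2 were then no longer lower with both. In that fit 215 of all 21448 clusters were lower with shLSD1 #1 and 969 with shLSD1 #2, against 1702 and 1421 without the block. The median change of the 9 genes was -0.87 with shLSD1 #1 and -0.75 with shLSD1 #2, beside 0.03 and 0.02 over all clusters. Both comparisons use the same 3 control arrays. All 3 shLSD1 #1 arrays lay below all controls for 7 of 9 genes, against 16.8% of all clusters, and all 3 shLSD1 #2 arrays for 8 of 9, against 15.3%. All 6 hairpin arrays did so for 7 of 9, against 11.3%. The arrays read RNA pooled over all cells of a culture, so fewer cells with a transcript and less of it per cell cannot be told apart.

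**Figure D2:**
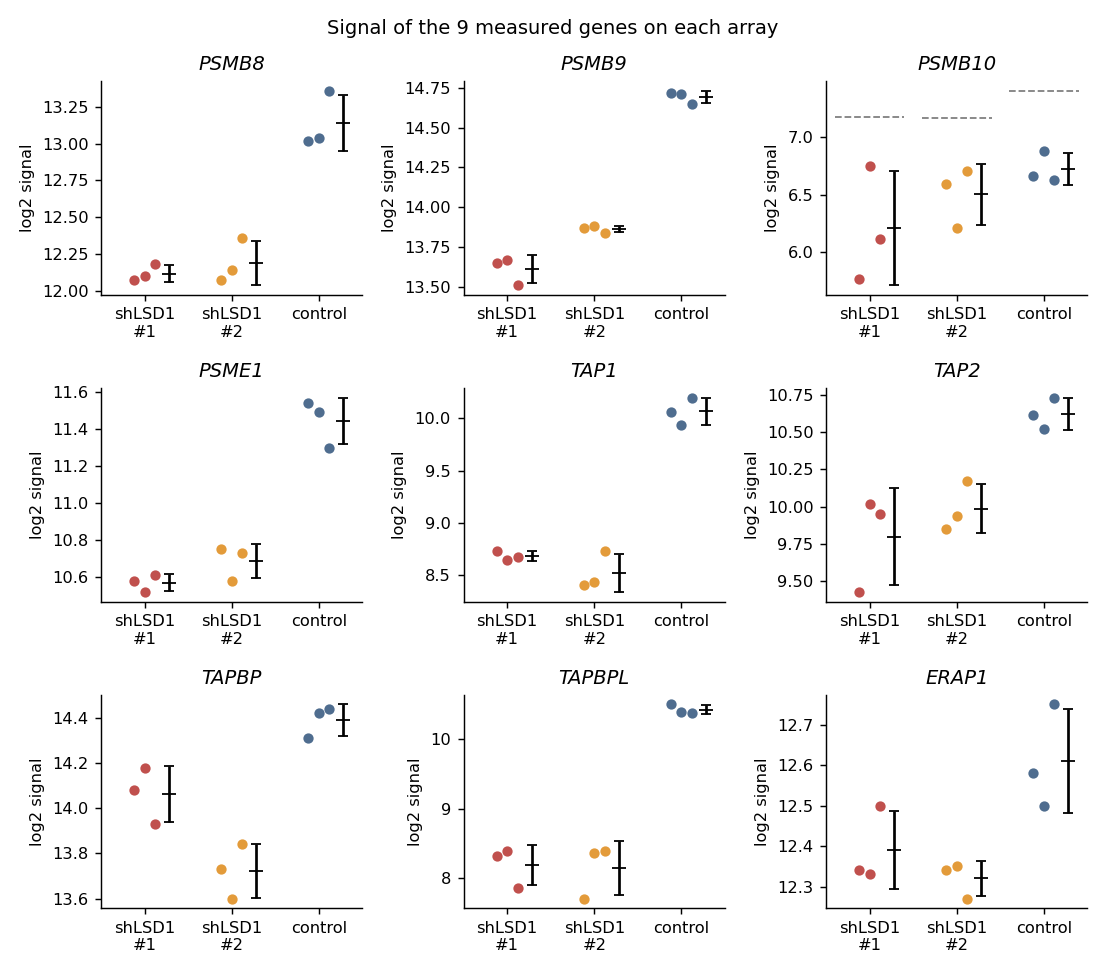
Log2 signal of the 9 measured genes, with 1 point per array and the mean ± SD of each group (n = 3) beside the points, on a separate axis range for each gene. For 7 genes all 6 hairpin arrays lie below the 3 control arrays, and PSMB10 lies below the mean negative control limit of each group (dashed).

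Among the catalytic subunits, PSMB8 and PSMB9 fell with both hairpins. PSMB8, the chymotrypsin-like subunit that replaces PSMB5, had signals of 12.07, 12.10 and 12.18 with shLSD1 #1, of 12.07, 12.14 and 12.36 with shLSD1 #2, and of 13.02, 13.04 and 13.36 in control. The highest hairpin array was well under the lowest control array. PSMB8 changed by -1.03 ± 0.13 with shLSD1 #1 (SE, n = 3, limma adjusted p = 0.000848) and by -0.95 ± 0.13 with shLSD1 #2 (adjusted p = 0.00138), or 2.04-fold and 1.93-fold lower. Blocked by spike-in class, its shLSD1 #1 call ended, at -0.95 (adjusted p = 0.114).

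PSMB9, the subunit that replaces PSMB6, had signals of 13.65, 13.67 and 13.51 with shLSD1 #1, of 13.87, 13.88 and 13.84 with shLSD1 #2, and of 14.72, 14.71 and 14.65 in control. The groups did not overlap, and the shLSD1 #1 arrays were the lowest. PSMB9 changed by -1.08 ± 0.10 with shLSD1 #1 (limma adjusted p = 0.000127) and by -0.83 ± 0.10 with shLSD1 #2 (adjusted p = 0.000621). The 95% interval of the difference between hairpins, shLSD1 #1 minus shLSD1 #2, ran from -0.48 to -0.03, with an adjusted p of 0.594.

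PSMB10, the subunit that replaces PSMB7, was below background on all 9 arrays. Its signals were 5.77, 6.75 and 6.12 with shLSD1 #1, 6.59, 6.21 and 6.71 with shLSD1 #2, and 6.66, 6.88 and 6.63 in control. The groups overlapped, no fold is given, and neither hairpin passed (limma adjusted p = 0.183 and 0.624). Without shLSD1 #1 replicate 5 the shLSD1 #1 comparison had an adjusted p of 0.0275, and it too compares signals below background.

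PSME1, which encodes the alpha subunit of the PA28 cap that opens the proteasome gate, had signals of 10.58, 10.52 and 10.61 with shLSD1 #1, of 10.75, 10.58 and 10.73 with shLSD1 #2, and of 11.54, 11.49 and 11.30 in control. All hairpin arrays were below all control arrays. The change was -0.87 ± 0.11 with shLSD1 #1 (limma adjusted p = 0.000867) and -0.75 ± 0.11 with shLSD1 #2 (adjusted p = 0.00205). Its shLSD1 #1 call ended with the spike-in block, at -0.71 (adjusted p = 0.137).

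The transporter subunits both fell. TAP1 had signals of 8.73, 8.64 and 8.67 with shLSD1 #1, of 8.40, 8.43 and 8.73 with shLSD1 #2, and of 10.06, 9.94 and 10.20 in control. At least 1.21 separated the highest array of each hairpin from the lowest control array. TAP1 was 2.62-fold lower with shLSD1 #1 (-1.39 ± 0.13, limma adjusted p = 0.000115) and 2.93-fold lower with shLSD1 #2 (-1.55 ± 0.13, adjusted p = 5.65e-05). Both calls held with the spike-in block, at -1.25 and -1.50.

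TAP2 had signals of 9.43, 10.02 and 9.95 with shLSD1 #1, of 9.85, 9.94 and 10.17 with shLSD1 #2, and of 10.61, 10.52 and 10.73 in control. The hairpin arrays again lay below the controls, with replicate 4 the lowest. TAP2 changed by -0.82 ± 0.17 with shLSD1 #1 (limma adjusted p = 0.0103) and by -0.63 ± 0.17 with shLSD1 #2 (adjusted p = 0.0388). These calls were the least firm of the set. The spike-in block ended both (limma adjusted p = 0.326 and 0.110), and for shLSD1 #2 it equals the fit without replicate 8. The shLSD1 #2 call also ended among arrays of high spike-in signal (0.0775). It ended as well without control replicate 1 (0.0944), control replicate 2 (0.0734), control replicate 3 (0.119) or shLSD1 #2 replicate 7 (0.125). The difference of TAP1 minus TAP2 within an array was -1.38 to -0.69 with shLSD1 #1 and -1.52 to -1.45 with shLSD1 #2, and -0.57 to -0.53 in control. That difference was lower on all 6 hairpin arrays than on any control array. This pair was chosen after its values were seen and was not tested.

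Of the loading chaperones, TAPBPL changed the most of all 9 genes with each hairpin. TAPBPR, its product, is a peptide editor that works outside the loading complex. Its signals were 8.32, 8.39 and 7.87 with shLSD1 #1, 7.71, 8.37 and 8.39 with shLSD1 #2, and 10.50, 10.39 and 10.38 in control. A gap of 1.99 lay between the highest hairpin array and the lowest control array. TAPBPL was 4.69-fold lower with shLSD1 #1 (-2.23 ± 0.20, limma adjusted p = 0.000115) and 4.81-fold lower with shLSD1 #2 (-2.27 ± 0.20, adjusted p = 9.99e-05). Both calls held in each alternative fit, with changes between -2.55 and -2.04. As described above, no ISRE-like motif stood in its windows.

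TAPBP, which encodes tapasin, the bridge between TAP and the MHC molecule, had signals of 14.08, 14.18 and 13.93 with shLSD1 #1, of 13.73, 13.60 and 13.84 with shLSD1 #2, and of 14.31, 14.42 and 14.44 in control. The 3 groups did not overlap and shLSD1 #2 was the lowest. TAPBP changed by -0.67 ± 0.12 with shLSD1 #2 (limma adjusted p = 0.00502). With shLSD1 #1 the value was -0.32 ± 0.12, short of the threshold (adjusted p = 0.0957), although it passed with a trended robust prior (0.00527) and without the third of clusters of lowest mean (0.0482). The difference between hairpins was 0.34 with a 95% interval of 0.08 to 0.61 (adjusted p = 0.582). The difference of TAPBPL minus TAPBP within an array was -6.07 to -5.76 with shLSD1 #1, -6.02 to -5.23 with shLSD1 #2 and -4.06 to -3.81 in control, a pair that was also chosen after its values were seen and was not tested.

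ERAP1, which trims peptides in the endoplasmic reticulum to the length that MHC class I takes, had signals of 12.34, 12.33 and 12.50 with shLSD1 #1, of 12.34, 12.35 and 12.27 with shLSD1 #2, and of 12.58, 12.50 and 12.75 in control. The shLSD1 #1 arrays touched the control range and the shLSD1 #2 arrays lay below it. The change was -0.22 (95% interval -0.48 to 0.03, limma adjusted p = 0.233) with shLSD1 #1 and -0.29 (-0.55 to -0.04, adjusted p = 0.134) with shLSD1 #2. These intervals leave out a 2-fold fall. The shLSD1 #2 value passed with a trended robust prior (adjusted p = 0.0251).

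**Figure D3:**
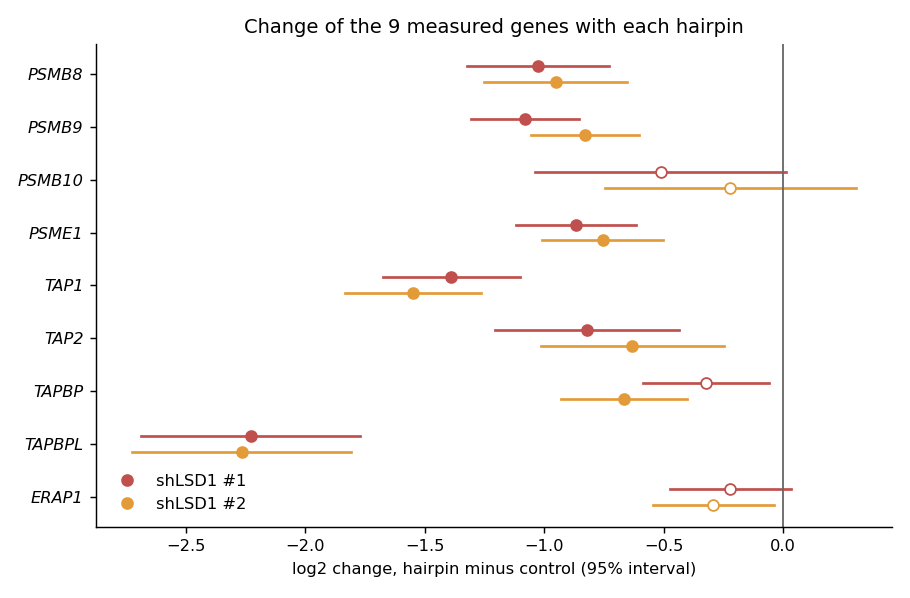
Log2 change of each measured gene with shLSD1 #1 (red) and shLSD1 #2 (orange) minus control, with its 95% interval from limma. Filled points passed the adjusted threshold of 0.05, and TAPBPL lies farthest from 0 with each hairpin, at -2.23 and -2.27.

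The hairpins were compared directly for each gene. By limma 0 of 9 genes passed the adjusted threshold in that contrast, as did 0 of all clusters (0%), and 2 of 9, TAPBP and PSMB9, had an unadjusted p under 0.05 (0.0161 and 0.0316), where 7.87% of all clusters did. These 2 differences point opposite ways, with TAPBP lower with shLSD1 #2 and PSMB9 lower with shLSD1 #1. The remaining genes with signal above background had differences between -0.19 and 0.16. The widest interval among them, that of TAPBPL, ran from -0.42 to 0.50. The median deviation of the 9 genes from their control means was -1.04, -0.92 and -0.83 on the shLSD1 #1 arrays and -0.77, -0.81 and -0.71 on the shLSD1 #2 arrays, against -0.01, -0.04 and 0.05 on the control arrays.

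The transcript of each induced subunit was set against that of the constitutive subunit it replaces, as a difference within each array. Exchange of subunits in assembled proteasomes was not measured. Different probes have different brightness, so only the shift of that difference between groups is read. PSMB8 minus PSMB5 was -0.82 to -0.59 with shLSD1 #1, -0.67 to -0.40 with shLSD1 #2 and 0.07 to 0.33 in control. The mean of the 6 hairpin arrays was 0.80 below that of the 3 control arrays, a shift of -0.80 (exact two-sided permutation p = 0.0238, adjusted over 3 pairs 0.0357). PSMB9 minus PSMB6 was -0.29 to 0.03 with shLSD1 #1, -0.03 to 0.05 with shLSD1 #2 and 0.32 to 0.59 in control, a shift of -0.54 (exact permutation p = 0.0238, adjusted 0.0357). In both pairs all 6 hairpin arrays were below all 3 control arrays, and 0.0238 is the smallest p that 6 against 3 arrays allow. A single hairpin against control cannot go below 0.10, and the shifts were -0.86 and -0.74 for PSMB8 minus PSMB5 and -0.61 and -0.47 for PSMB9 minus PSMB6 with shLSD1 #1 and shLSD1 #2. The adjustment also covers the pair PSMB10 minus PSMB7, whose shift is not given because PSMB10 was below background on all arrays.

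**Figure D4:**
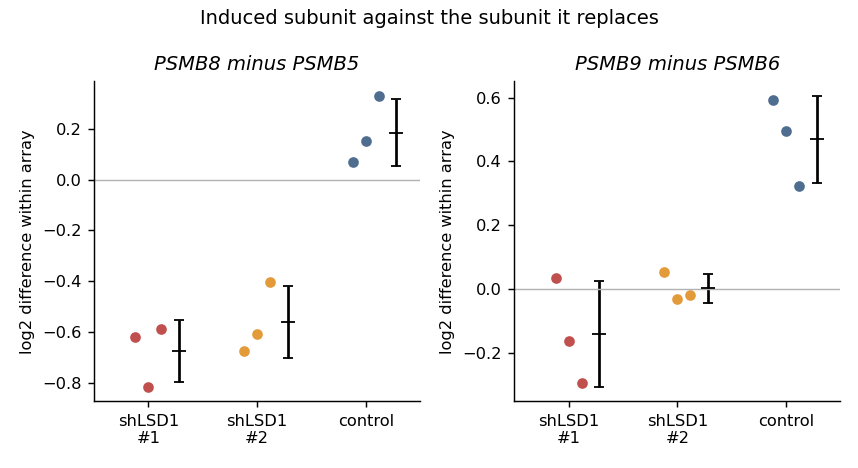
Log2 difference within each array between PSMB8 and PSMB5 (left) and between PSMB9 and PSMB6 (right), with 1 point per array and the mean ± SD of each group (n = 3). All 6 hairpin arrays lie below the 3 control arrays in both panels.

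Of the constitutive partners of these subunits, PSMB6 alone passed the test, and with shLSD1 #1 alone. PSMB5 had -0.17 ± 0.11 with shLSD1 #1 and -0.21 ± 0.11 with shLSD1 #2 (SE, limma adjusted p = 0.345 and 0.268), and PSMB7 had -0.12 and -0.10 (adjusted p = 0.503 and 0.599). PSMB6 was lower with shLSD1 #1 (-0.47, adjusted p = 0.0192) and had -0.36 with shLSD1 #2 (adjusted p = 0.0651). That PSMB6 call ended with the block (0.268) and without control replicate 2 (0.0559), control replicate 3 (0.0709) or shLSD1 #1 replicate 4 (0.0698), and the shLSD1 #2 value passed with cyclic loess (0.0475), a trended robust prior (0.00174) and without the third of clusters of lowest mean (0.0285). Of 14 constitutive core subunits, 1 was lower with shLSD1 #1 and 0 with shLSD1 #2, and 0 were higher, with median changes of -0.12 and -0.04. Of 19 measured genes of the 19S cap, which recognises ubiquitin and unfolds the substrate, 0 were lower and 1 was higher with shLSD1 #1, and 0 changed with shLSD1 #2. Among 8 other activators, inhibitors and assembly factors, 3 were lower with shLSD1 #1 and 1 with shLSD1 #2, and 0 were higher. PSMG2, an assembly chaperone of the core, was lower with both (-0.52 and -0.46), where the shLSD1 #1 call ended with the block (adjusted p = 0.182) and the shLSD1 #2 call in 5 alternative fits, among arrays of high spike-in signal and without any 1 control replicate or shLSD1 #2 replicate 7. PSME3, the nuclear relative of PSME1, had -0.03 and 0.04 (adjusted p = 0.899 and 0.889), with 95% intervals of -0.29 to 0.23 and -0.22 to 0.30. POMP, which guides the assembly of the immunoproteasome, had -0.22 and -0.05 (adjusted p = 0.295 and 0.872).

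In the endoplasmic reticulum, the genes of class I molecules were lower and the general folding factors did not pass. Of 14 other loading and folding genes, 5 were lower with shLSD1 #1 and 6 with shLSD1 #2, and 0 were higher. B2M, the light chain of MHC class I, changed by -0.98 and -1.05, HLA-F by -1.13 and -1.25, HLA-C by -1.36 and -1.28 and HLA-E by -1.25 and -1.23, where HLA probes may share signal. With the spike-in block the shLSD1 #1 calls of HLA-C and HLA-E ended (adjusted p = 0.201 and 0.131). The lectin chaperones CALR and CANX and the oxidoreductase PDIA3 had limma adjusted p of 0.442, 0.364 and 0.435 with shLSD1 #1. Their adjusted p with shLSD1 #2 was 0.850, 0.739 and 0.387. Their changes lay between -0.18 and 0.18. ERAP2, the partner of ERAP1, was lower with shLSD1 #2 (-0.74, adjusted p = 0.00382) and had -0.38 with shLSD1 #1 (adjusted p = 0.0680), which passed with a trended robust prior (0.0493) and without the third of clusters of lowest mean (0.0334).

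**Figure D5:**
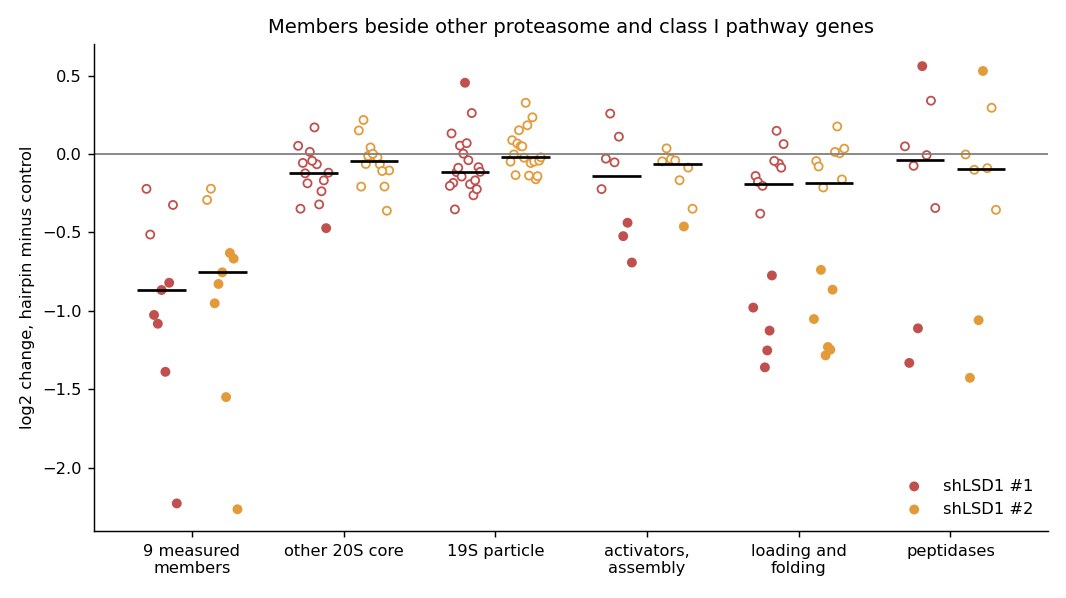
Log2 change minus control with shLSD1 #1 (red) and shLSD1 #2 (orange) for the 9 measured genes and for 5 lists of other proteasome and class I pathway genes, with 1 point per gene. Filled points passed the adjusted threshold of 0.05 and bars are medians, which are -0.87 and -0.75 for the 9 genes and -0.12 and -0.04 for the other core subunits.

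Genes outside the set were ranked by the Pearson correlation of their log2 signal with the mean of the 9 genes over the 9 arrays. The first 6 were SLC6A9, a glycine transporter (r = 0.996), SLC31A1, a copper importer (0.995), CDA, cytidine deaminase (0.994), SPOCK1, a matrix proteoglycan (0.994), NNMT, nicotinamide N-methyltransferase (0.994), and CD164, a sialomucin (0.994). The arrays form a control cluster and a hairpin cluster, so these values mainly state a gap between them and describe these arrays alone. The 6 genes fell with both hairpins, with log2 changes between -1.95 for CD164 with shLSD1 #1 and -1.17 for SLC6A9 with shLSD1 #2. With the spike-in block the SLC6A9 call for shLSD1 #1 ended (adjusted p = 0.0598).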

How the data were processed

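The authors deposited log2 signal per transcript cluster, made by RMA in Affymetrix Expression Console 1.4 per the submitters' processing notes. No source used here states the base of the logarithm, and 2 is assumed because RMA writes it by default. Of 24351 values per array, 2903 control rows were set aside. Gene symbols came from the platform annotation, where 17709 clusters carried 1 symbol and 3739 carried none. For genes with several clusters the one of highest mean signal was used. All clusters entered limma 3.58.1 (lmFit, eBayes, R 4.3.3) in 1 fit of 3 groups. Named genes were all members, a fixed set of pathway genes (1 of which is not reported here), up to 4 genes per pathway list (not the marker lists) past the test with both hairpins and the 6 most alike genes. The members and lists were chosen with earlier results of these data known. Subunit pairs were compared by exact permutation (scipy 1.17.1). Promoter windows were searched for 8 motifs. Beside those described, a kB-like motif with any 3 bases between GGG and TTCC matched the same 3 genes as the narrower form (7.83% of all genes). A palindromic kB form (0.549% of all genes) and an X box (0.791%) matched 0 genes each. The GC box GGGCGG matched 8 genes (48.3% of all genes). The CCAAT box matched 3 genes (39.7% of all genes). The fits and the permutation test were tested on simulated data. In the limma simulation 14% of changes of 0.5 were called, against 82% of changes of 1 and 76% of changes of -1. It changed 50 of 21448 clusters at each size, whereas 1702 were lower and 1683 higher with shLSD1 #1 in the data. With fewer changed clusters the adjusted threshold is stricter, so these shares need not hold for the data. A change of about 0.5 can still miss the threshold. The permutation simulation held only a large shift. Alternatives were other normalizations, a filter, priors, weights, subsets of groups or arrays and the spike-in class as a block. The number of arrays limits the precision.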

Additional observations from a re-analysis of the deposited data

How the results depend on the processing

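Across 468 values of the 9 genes under alternative fits, differences between hairpins included, 454 kept their side of the threshold. Another 10 fell short of it and 4 newly passed it. Of values that passed in either fit, 0 reversed direction. Some that passed in neither changed sign, such as the hairpin differences of PSMB8 (-0.13 to 0.01) and TAPBPL (-0.19 to 0.20). For shLSD1 #2 the block and the fit without replicate 8 are both counted, though they are the same fit. Blocked by spike-in class, 3 of 9 genes were lower with shLSD1 #1 in place of 6 (TAP1, TAPBPL and PSMB9). In that fit 215 clusters were lower and 184 higher with shLSD1 #1, against 1702 and 1683, and the SE of TAP1 was 0.23 in place of 0.13. Among arrays of high spike-in signal 751 were lower and 699 higher with shLSD1 #2, against 1421 and 1406. Without control replicate 2, 933 clusters were higher with shLSD1 #2. The trended robust prior called 9 clusters lower and 33 higher between hairpins, none of them a member. Over all alternatives between 6 and 8 genes were lower with shLSD1 #2, where between 751 and 1885 of 21448 clusters were. Without the third of clusters of lowest mean, 1725 of 14298 were. Of the 9 genes 0 were higher with either hairpin, against 184 to 2247 clusters with shLSD1 #1 and 699 to 1944 with shLSD1 #2. Without 1 array in turn, 6 to 7 genes were lower with each hairpin. In those fits 1238 to 1628 of 21448 clusters were lower with shLSD1 #1 and 969 to 1362 with shLSD1 #2. The shift of PSMB8 minus PSMB5 was then -0.86 to -0.73 and that of PSMB9 minus PSMB6 was -0.61 to -0.48. Their adjusted permutation p was 0.0536 without a hairpin array and 0.107 without a control array. With fewer arrays the smallest p that the test allows is larger, and the adjustment also covers PSMB10 minus PSMB7. Without a control array that smallest p is itself above 0.05, so no pair could pass. Without a hairpin array these pairs could pass only if PSMB10 minus PSMB7 also reached the smallest p, which it did not. Under the trended robust prior ERAP1 with shLSD1 #2 and TAPBP with shLSD1 #1 passed. No paired analysis was possible because the groups share no replicate numbers. Signals under the negative control limit, such as PSMB10, set no fold.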

Other observations

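Regulators of these genes were measured as well. Of 11 with a cluster, 3 were lower and 1 was higher with shLSD1 #1, and 4 were lower and 0 higher with shLSD1 #2. The one that was higher, named after its values were seen, was RFXAP, which joins RFX5 in the RFX complex. It was above background on 1 of 3 shLSD1 #1 arrays and on no shLSD1 #2 or control array, so no fold is given (limma adjusted p = 0.0183 with shLSD1 #1 and 0.144 with shLSD1 #2). Its call ended with the spike-in block (0.148) and without control replicate 2 (0.0585), control replicate 3 (0.050005) or shLSD1 #1 replicate 4 (0.0686). IRF9, a DNA-binding subunit of an interferon-activated complex, averaged 9.79 ± 0.29 with shLSD1 #1, 9.69 ± 0.18 with shLSD1 #2 and 11.97 ± 0.039 in control (log2 signal, SD, n = 3). Its limma change was -2.18 and -2.27. IRF1, which acts on ISRE-like motifs, averaged 9.10 ± 0.11 with shLSD1 #1, 9.23 ± 0.13 with shLSD1 #2 and 10.25 ± 0.17 in control, and its shLSD1 #1 call ended with the spike-in block (limma adjusted p = 0.0646). RFX5, a subunit of the factor that brings NLRC5 to MHC promoters, changed by -0.78 with shLSD1 #1 and -0.43 with shLSD1 #2, and the block ended both calls (limma adjusted p = 0.196 and 0.126). The shLSD1 #2 call of RFX5 ended in 10 alternative fits, among them those without any 1 control replicate. The block and the fit without shLSD1 #2 replicate 8, both among the 10, give the same values. NLRC5 itself was below background on all 9 arrays. Whether these regulators bear on the members was not tested.

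Of 8 measured peptidases that cut antigen peptides outside the endoplasmic reticulum, 2 were lower and 1 was higher with each hairpin. LAP3, a leucine aminopeptidase that interferon induces, averaged 11.30 ± 0.037 with shLSD1 #1, 11.20 ± 0.15 with shLSD1 #2 and 12.63 ± 0.089 in control. NPEPPS, the puromycin-sensitive aminopeptidase, rose by 0.56 and 0.53, a call that ended in 4 alternative fits for shLSD1 #1 and 6 for shLSD1 #2, those without control replicate 1 or 3 among both. NPEPL1, an aminopeptidase relative, was below background on all shLSD1 #1 arrays and above it on 1 of 3 shLSD1 #2 arrays and all control arrays. It was at least 1.81-fold lower with shLSD1 #1, taking the negative control limit for each shLSD1 #1 array (limma adjusted p = 0.00399). That call ended with the block (0.375). The shLSD1 #2 call of NPEPL1 ended among arrays of high spike-in signal (limma adjusted p = 0.0578).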
